A study of Drosophila melanogaster with 12 samples.

Results

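The immune deficiency (Imd) pathway of Drosophila was followed through 10 genes, named by their FlyBase symbols: pirk, PGRP-LC, PGRP-LE, PGRP-LB, imd, Fadd, Dredd, Tak1, key and Rel. All 10 were found among the 17494 gene identifiers of the count table, and 9 of them were among the 7328 genes with enough reads to be tested. PGRP-LB was not. The gene pirk was chosen because its level in these same libraries stood out between groups, so its values are given here as a description with no test. The other 9 were taken for their place in the pathway, with earlier results of these data known.

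The samples were S2 cells, a hemocyte-like line derived from Drosophila melanogaster embryos, treated for 48 hours with the drug solvent DMSO or with TMPyP4, a cationic porphyrin used as a ligand of G-quadruplex structures, which form in guanine-rich DNA or RNA. There were 12 poly(A)-selected libraries, 3 in each group: DMSO (labelled 100 µg/L), and TMPyP4 at 25, 50 and 100 µmol/L. Gene counts ran from 4669194 to 9662038 per library. Nothing in the labels says that replicates were separate cultures, so p-values measure the spread between these libraries, which may be technical.

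The Imd pathway is the main defence of flies against Gram-negative bacteria. Peptidoglycan recognition proteins bind bacterial peptidoglycan, the adaptor imd gathers Fadd and the caspase Dredd, and the kinase Tak1 activates an IκB kinase complex. The NF-κB precursor Rel is then cleaved and switches on antimicrobial peptide genes. Pirk is a feedback inhibitor: it binds the receptors and imd, and its own gene is a target of the pathway. S2 cells are widely used to study this route because they respond to peptidoglycan in culture.

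Markers of hemocytes, the blood cells that S2 cells resemble, were checked first. Of 10, 9 were tested, with Col4a1 (a collagen) at 908 and Hml (hemolectin) at 446 CPM in DMSO, and NimC1 had at most 3 counts in any library. Summed over the 10, the markers came to 2150 to 2480 CPM (counts divided by the TMM-adjusted library size) in DMSO, 1390 to 1540 at 25, 1140 to 1760 at 50 and 1090 to 1250 CPM at 100 µmol/L. With edgeR, 3, 5 and 6 of the 9 fell at 25, 50 and 100 µmol/L, against 1.13%, 5.16% and 3.59% of all genes called lower. The 3 called at 25 µmol/L, Hml, vkg and Col4a1, are long (11756, 6503 and 6165 exonic bases). The likewise long ush, Pxn and srp (6706, 5955 and 5831 exonic bases) were not called at 25 µmol/L. Among shorter markers, eater (3301 exonic bases) was called at 100 µmol/L (log2 fold change -2.01, edgeR adjusted p 0.0315). The shorter crq and Sr-CI (2848 and 2202 exonic bases) were not called at any concentration. At 100 µmol/L crq and Sr-CI had log2 fold changes of -0.01 and 1.21 (edgeR adjusted p 0.968 and 0.151). The lists of other cell types (fat body, neuron, muscle, germline, gut) had 14 genes in the table, of which 3 were at 0 in every library. The germline gene bam averaged 172 CPM in DMSO, and the other 13 together came to 5.84 CPM or less in any library. What the change in hemocyte markers contributed to the results below was not tested. In bulk samples, fewer cells of a type and less RNA per cell cannot be told apart.

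Libraries also differed in how their counts followed gene length. Across genes, the deviation of log2 CPM from the gene's own mean had a slope against the log2 of exonic length of 0.264, 0.054 and 0.154 in DMSO replicates 1, 2 and 3, and -0.222 to 0.029 in the 9 TMPyP4 libraries. DMSO replicate 1 and replicate 2 of 50 µmol/L lay at the ends. Values with a correction for length are therefore given below where they alter a result. They are not given for the hemocyte markers above, so how far length entered the fall of those markers was not tested.

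The level of pirk (FBgn0034647, dm6 chromosome 2R, 21660967 to 21662995, minus strand) did not follow the dose in order. It was 10.1, 14.3 and 20.0 CPM in DMSO replicates 1, 2 and 3. At 25 µmol/L it was 54.5, 85.3 and 91.4 CPM, at 50 µmol/L 8.84, 8.52 and 9.69 CPM, and at 100 µmol/L 35.1, 21.4 and 28.2 CPM. The 4 groups did not overlap: every library at 25 µmol/L lay above every library at 100 µmol/L, these lay above DMSO, and DMSO lay above 50 µmol/L. Of all genes tested, 10.8% at 25 and 13.7% at 100 µmol/L lay above DMSO in this way, and 13% lay below it at 50 µmol/L. The share with all 4 groups apart is not given, and pirk was chosen for such differences.

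The fitted log2 fold change of pirk relative to DMSO was 2.38 (SE 0.24) for 25 µmol/L, -0.71 (SE 0.274) for 50 µmol/L and 0.94 (SE 0.242) for 100 µmol/L, which is 5.2, 0.61 and 1.92 times the DMSO level. These 3 values share their DMSO libraries. With the correction for gene length they were 2.33, -0.78 and 0.88. Leaving out each library in turn gave 2.16 to 2.67 at 25, -0.93 to -0.42 at 50 and 0.72 to 1.23 at 100 µmol/L. The value at 50 µmol/L was nearest to 0 without DMSO replicate 3, the DMSO library with the most pirk.

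The numbers in the sample titles fall into 4 runs of 3 libraries, and what they stand for is not stated. Within the run of 54 to 78, pirk had 54.5 and 85.3 CPM at 25 µmol/L against 20.0 CPM in DMSO. In the run of 102 to 126 it had 91.4 CPM at 25 and 9.69 CPM at 50 µmol/L, against 10.1 CPM in DMSO. In the run of 6 to 30 it had 8.84 CPM at 50 and 21.4 CPM at 100 µmol/L, against 14.3 CPM in DMSO. In the run of 150 to 174 it had 35.1 and 28.2 CPM at 100 µmol/L, against 8.52 CPM at 50 µmol/L. Since the 4 groups do not overlap, their order within a run follows from the values already given.

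**Figure D1:**
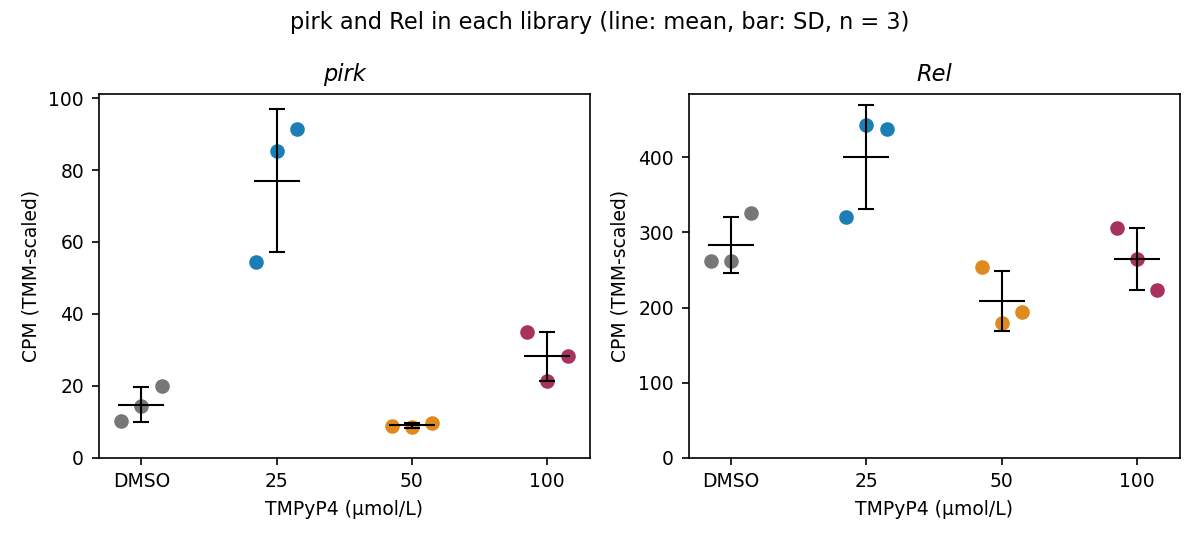
CPM of pirk (left) and Rel (right) in each of 12 libraries, by TMPyP4 concentration in µmol/L, with DMSO at the left. Points are libraries (replicates 1 to 3 from left to right), lines are means and bars are SD (n = 3). In both genes the highest mean is at 25 µmol/L and the lowest at 50 µmol/L, 77.1 and 9.02 CPM for pirk and 401 and 209 CPM for Rel.

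Levels of different genes were compared per length, as CPM per kilobase of exon. In DMSO the order was key (84.4 ± 2.49), Rel (81.0 ± 10.7), Dredd (29.2 ± 3.96), Tak1 (28.0 ± 2.38), PGRP-LC (16.8 ± 1.2), Fadd (13.2 ± 1.87), imd (9.27 ± 1.36), pirk (8.01 ± 2.71), PGRP-LE (4.56 ± 1.24) and PGRP-LB (0.11 ± 0.0456), all as mean ± SD in CPM per kilobase with n = 3. The ranges of key and Rel overlapped, as did those of Dredd and Tak1, of imd and pirk, and of pirk and PGRP-LE, so those neighbours were not separated by their spread. The genes of the IκB kinase subunit and of the transcription factor were thus the most abundant of the 10, and the adaptor imd and the receptor PGRP-LE were among the least.

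In this order pirk moved most, but it was chosen because its level stood out between groups, so that is a description. It was at rank 8 in DMSO and at 50 µmol/L (4.88 ± 0.327 CPM per kilobase), at rank 3 at 25 µmol/L (41.8 ± 10.7) and at rank 6 at 100 µmol/L (15.3 ± 3.71, n = 3 each). Its range at 25 µmol/L overlapped that of Dredd. Over the 12 libraries, the group means of pirk spanned 3.02 on the log2 scale, those of Rel 0.94, those of PGRP-LE 0.88, and those of the remaining 6 tested members 0.14 to 0.32. The pooled SD within groups was 0.37 for pirk, 0.24 for Rel, 0.34 for PGRP-LE and 0.07 to 0.22 for those 6 on the same scale.

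**Figure D2:**
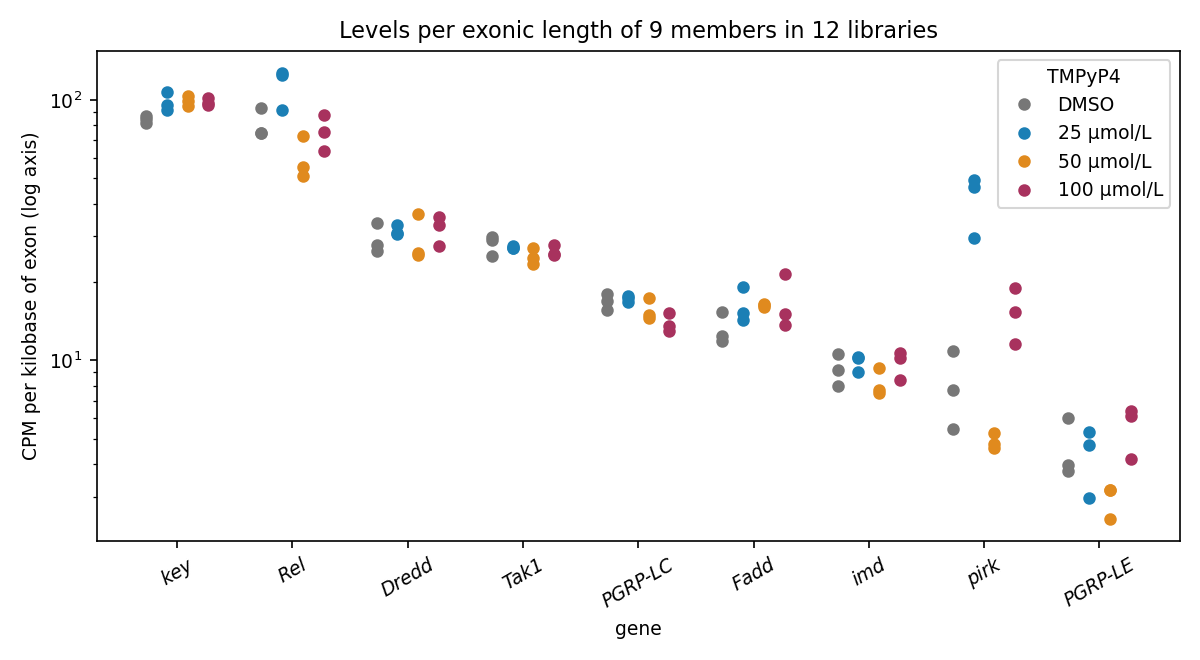
CPM per kilobase of exon (log axis) of 9 members in 12 libraries, sorted by the DMSO mean, with a point per library and a colour per group. PGRP-LB, at 0 to 3 counts per library, is left out. No other member spans as wide a range of group means as pirk, which runs from 4.88 at 50 µmol/L to 41.8 at 25 µmol/L (group means). The choice of pirk rested on such differences.

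The comparison with DMSO asked whether other members differed as well. With edgeR's quasi-likelihood test, 0 of the 8 tested members other than pirk had an adjusted p under 0.05 at any concentration. Over all 7328 genes the share was 1.66% at 25, 6.85% at 50 and 5.17% at 100 µmol/L, so few calls among 8 genes would be found at the background rate. At an unadjusted p under 0.05 there were 2 of the 8 at each concentration, against 15.6%, 26.2% and 21.8% of all genes, and DESeq2 also called 0. For the 8, the log2 fold changes had medians of 0.10, -0.13 and 0.11 in order of dose, beside 0.013, 0.021 and 0.015 over all genes tested.

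Among the receptors, PGRP-LC (FBgn0035976, 3L, 9338810 to 9348336, plus strand), the membrane receptor of the pathway, had 63.2, 67.3 and 58.3 CPM in DMSO, 65.8, 65.1 and 63.1 at 25, 64.9, 54.8 and 55.8 at 50 and 56.8, 48.7 and 50.6 CPM at 100 µmol/L. The libraries at 100 µmol/L were all below those of DMSO, as in 13.4% of all genes, and the other groups overlapped DMSO. Its log2 fold change at 100 µmol/L was -0.27 (95% interval -0.51 to -0.04, edgeR adjusted p 0.161), and with the correction for length -0.15. At 25 µmol/L it was 0.04 (-0.19 to 0.27).

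The intracellular receptor PGRP-LE (FBgn0030695, X, 15801153 to 15803880, minus strand) had few reads, 21 to 102 counts per library. It had 7.78, 12.4 and 8.19 CPM in DMSO, 6.15, 11 and 9.78 at 25, 6.59, 5.11 and 6.58 at 50 and 13.2, 12.7 and 8.65 CPM at 100 µmol/L. As for pirk, the 3 libraries at 50 µmol/L were below those of DMSO, which was the case for 13% of all genes, but the other groups overlapped DMSO. The log2 fold change at 50 µmol/L was -0.62 (SE 0.293, edgeR adjusted p 0.191). PGRP-LB (FBgn0037906, 3R, 11452849 to 11460552, minus strand), an amidase that degrades peptidoglycan and so dampens the pathway, had 2, 2 and 1 counts in DMSO, 0, 3 and 0 at 25, 1, 1 and 0 at 50 and 1, 0 and 0 counts at 100 µmol/L. Every library was at or under the counting floor of 3 counts (0.315 to 0.73 CPM), and no fold is given.

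None of the adaptors and the caspase passed the test at any concentration. For imd (FBgn0013983, 2R, 18409796 to 18413599, minus strand), a death-domain adaptor, the groups overlapped DMSO at each concentration, with means of 14.1 ± 2.06 CPM in DMSO, 14.9 ± 1.07 at 25, 12.4 ± 1.53 at 50 and 14.8 ± 1.83 CPM at 100 µmol/L (SD, n = 3 each). Its 3 log2 fold changes were 0.09, -0.18 and 0.08, with edgeR adjusted p of 0.579 or more. Fadd (FBgn0038928, 3R, 22034455 to 22035617, plus strand), which joins imd to the caspase, averaged 15.4 ± 2.17 CPM in DMSO, 18.8 ± 2.95 at 25, 18.9 ± 0.28 at 50 and 19.4 ± 4.76 CPM at 100 µmol/L (SD, n = 3 each). At 50 µmol/L its 3 libraries lay above DMSO, as in 12.8% of all genes. Its log2 fold changes of 0.29, 0.30 and 0.32 (edgeR adjusted p 0.512, 0.349 and 0.361) were alike at the 3 concentrations, which share the DMSO libraries, and were 0.17, 0.12 and 0.19 with the correction for length. Dredd (FBgn0020381, X, 633622 to 635545, minus strand), the caspase that cleaves imd and Rel, averaged 50.0 ± 6.76 CPM in DMSO, 53.8 ± 2.25 at 25, 49.9 ± 10.6 at 50 and 54.7 ± 7.06 CPM at 100 µmol/L (SD, n = 3 each), and all groups overlapped DMSO. It had log2 fold changes of 0.11, -0.01 and 0.14 with edgeR adjusted p of 0.644 or more.

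Of the kinases, Tak1 (FBgn0026323, X, 20515908 to 20524928, minus strand) had one of the narrowest spreads. It averaged 110 ± 9.37 CPM in DMSO, 107 ± 0.869 at 25, 98.7 ± 7.22 at 50 and 104 ± 5.42 CPM at 100 µmol/L (SD, n = 3 each). All 3 groups overlapped DMSO. The 95% intervals of its log2 fold changes were -0.25 to 0.16 at 25, -0.36 to 0.05 at 50 and -0.30 to 0.11 at 100 µmol/L. Its slightly negative fold changes (-0.04, -0.16 and -0.09) turned to 0.07, 0.09 and 0.06 with the correction for length, so no direction is given for it.

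The gene key (FBgn0041205, 2R, 24785514 to 24787411, minus strand) encodes Kenny, the regulatory subunit of the IκB kinase complex. It had 123, 116 and 120 CPM in DMSO, 130, 136 and 152 at 25, 148, 135 and 141 at 50 and 136, 145 and 138 CPM at 100 µmol/L. All 9 TMPyP4 libraries lay above all 3 DMSO libraries. Of all genes tested, 10.8%, 12.8% and 13.7% had their 3 libraries at 25, 50 and 100 µmol/L above those of DMSO in this way. The log2 fold changes of 0.22, 0.24 and 0.22 (SE 0.0911, 0.0919 and 0.0913) did not pass the threshold, with edgeR adjusted p of 0.26, 0.116 and 0.17, and with the correction for length they were 0.12, 0.10 and 0.11.

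Rel (FBgn0014018, 3R, 9044183 to 9047977, minus strand), the NF-κB precursor at the end of the pathway, had its highest mean at 25 and its lowest at 50 µmol/L, as pirk did. It had 262, 262 and 326 CPM in DMSO, 321, 443 and 438 CPM at 25, 254, 179 and 194 CPM at 50 and 306, 265 and 223 CPM at 100 µmol/L. The libraries at 50 µmol/L lay below all those of DMSO, as in 13% of all genes. At 25 µmol/L, replicates 2 and 3 lay above DMSO and replicate 1 lay within it. In order of dose, its log2 fold changes were 0.50 (SE 0.156, edgeR adjusted p 0.123), -0.44 (SE 0.158, edgeR adjusted p 0.0966) and -0.10 (SE 0.156, edgeR adjusted p 0.773).

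The values of Rel against DMSO at 25 and 50 µmol/L did not pass the threshold in the main fit and changed with other fits. Without a filter on low counts they passed it at 25 and 50 µmol/L, with edgeR adjusted p of 0.00328 and 0.0037. They also passed it without 25 µmol/L replicate 1 (0.64, edgeR adjusted p 0.0329) and without 50 µmol/L replicate 1 (-0.60, edgeR adjusted p 0.0179). Each was the 1 pass among 6 fits of its comparison that left out a library. In those fits the edgeR adjusted p reached 0.41 at 25 and 0.326 at 50 µmol/L. With the title run as a term the edgeR adjusted p was 0.236 at 25 and 0.372 at 50 µmol/L. With the correction for length the value was 0.57 at 25 µmol/L (edgeR adjusted p 0.0545) and -0.26 at 50 µmol/L (edgeR adjusted p 0.349). In the title run of 6 to 30, Rel had 254 CPM at 50 and 265 CPM at 100 µmol/L, against 262 CPM in DMSO, so the 3 libraries were close together. In the run of 54 to 78 it had 321 and 443 CPM at 25 µmol/L against 326 CPM in DMSO. In the run of 102 to 126 it had 438 CPM at 25 and 194 CPM at 50 µmol/L, against 262 CPM in DMSO. The run of 150 to 174 held 306 and 223 CPM at 100 µmol/L, against 179 CPM at 50 µmol/L.

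**Figure D3:**
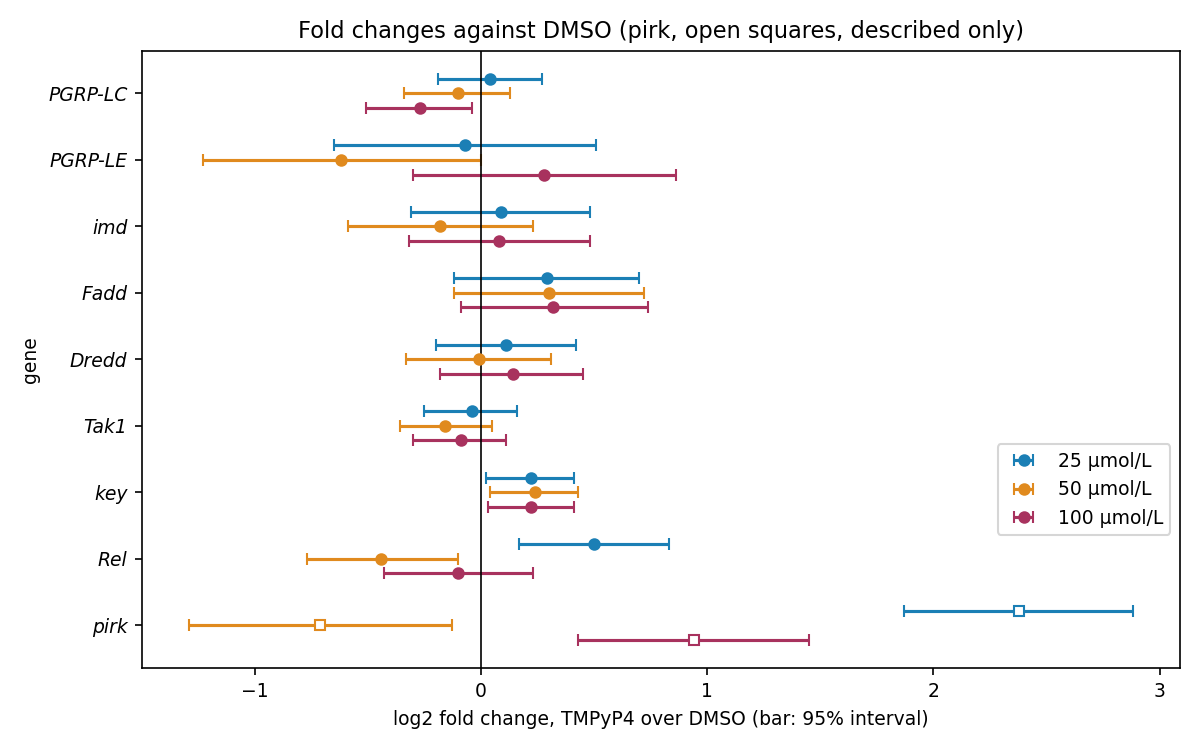
Log2 fold change of TMPyP4 over DMSO at 25, 50 and 100 µmol/L for 9 members, with 95% intervals from the fit of all 12 libraries. Filled points are tested members, of which 0 passed the threshold, and open squares are pirk, which was not tested. Only the estimate of pirk lies beyond 1 on the log2 scale, at 2.38 for 25 µmol/L. Since pirk was chosen for such differences, its estimates and intervals are a description of the fit and no test.

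Between concentrations, Rel fell at 50 relative to 25 µmol/L, by 0.94 on the log2 scale (SE 0.158, edgeR adjusted p 0.0109), with all 3 libraries at 50 µmol/L (179 to 254 CPM) below all 3 at 25 µmol/L (321 to 443 CPM), as in 6.78% of all genes. It was the single call among the 8 tested members, against 0.3% of all genes called in either direction and 0.109% called lower, and the 1 with an unadjusted p under 0.05, against 10.9% of all genes. DESeq2 gave it an adjusted p of 1.22e-05 and the correction for length one of 0.00759 with edgeR. The call was kept without replicate 1 of either group and lost without 25 µmol/L replicate 2 or 3 or 50 µmol/L replicate 2 or 3, where the value was -0.88 to -0.83 and the edgeR adjusted p 0.0818 to 0.103. It was also lost with the title run as a term (-0.88, edgeR adjusted p 0.716).

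The same comparison gave a log2 fold change of -3.09 (SE 0.264) for pirk, which was chosen on such differences. For the 7 remaining members it lay between -0.55 and 0.02. At 100 relative to 25 µmol/L, 0 of 8 were called by edgeR, against 0.205% of all genes. There Rel had a log2 fold change of -0.60 (edgeR adjusted p 0.29), which passed without a filter (edgeR adjusted p 0.000326) or without 25 µmol/L replicate 1 (-0.74, edgeR adjusted p 0.0491), and pirk had -1.44 (SE 0.23). At 100 relative to 50 µmol/L, 0 of 8 were called by edgeR, against 0.0409% of all genes, and the log2 fold change was 0.34 for Rel (edgeR adjusted p 0.756) and 1.65 (SE 0.268) for pirk. In both of these comparisons 2 of the 8 had an unadjusted p under 0.05, against 5.91% and 6.5% of all genes, and DESeq2 called 0.

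There were 792 tested genes that averaged 1 or more in log2 CPM and varied by an SD of 0.5 or more over libraries. Among them, the 5 whose log2 CPM followed that of pirk most closely over the 12 libraries were CecA1 (Pearson r 0.875, Spearman rho 0.748), CecB (0.874 and 0.825), CG13482 (0.872 and 0.839), lncRNA:CR45973 (0.804 and 0.853) and CG15561 (0.79 and 0.888). The first pair encode cecropins, antimicrobial peptides. The SD of Rel, 0.41, was under that minimum, and its r with pirk was 0.85 (rho 0.82). For the other 7 tested members r was 0.07 to 0.61. All these correlations share the libraries and their grouping and describe these 12 libraries alone.

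Both cecropin genes lie close together on 3R (CecA1 at 30210874 to 30211273, CecB at 30213315 to 30213797). CecA1 had 1.64, 2.09 and 4.51 CPM in DMSO, 4.65, 9.90 and 9.03 at 25, 2.41, 2.68 and 2.93 at 50 and 5.31, 2.63 and 2.70 CPM at 100 µmol/L. CecB had 0.876, 2.48 and 2.62 CPM in DMSO, 5.28, 6.60 and 6.27 at 25, 0.643, 1.46 and 1.28 at 50 and 1.68, 1.41 and 4.65 CPM at 100 µmol/L. Both were picked for following pirk in these libraries, so their high values at 25 µmol/L follow from the choice, and both rested on few reads (4 to 78 counts per library). The cecropin genes are similar copies, so reads could have been divided among them.

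**Figure D4:**
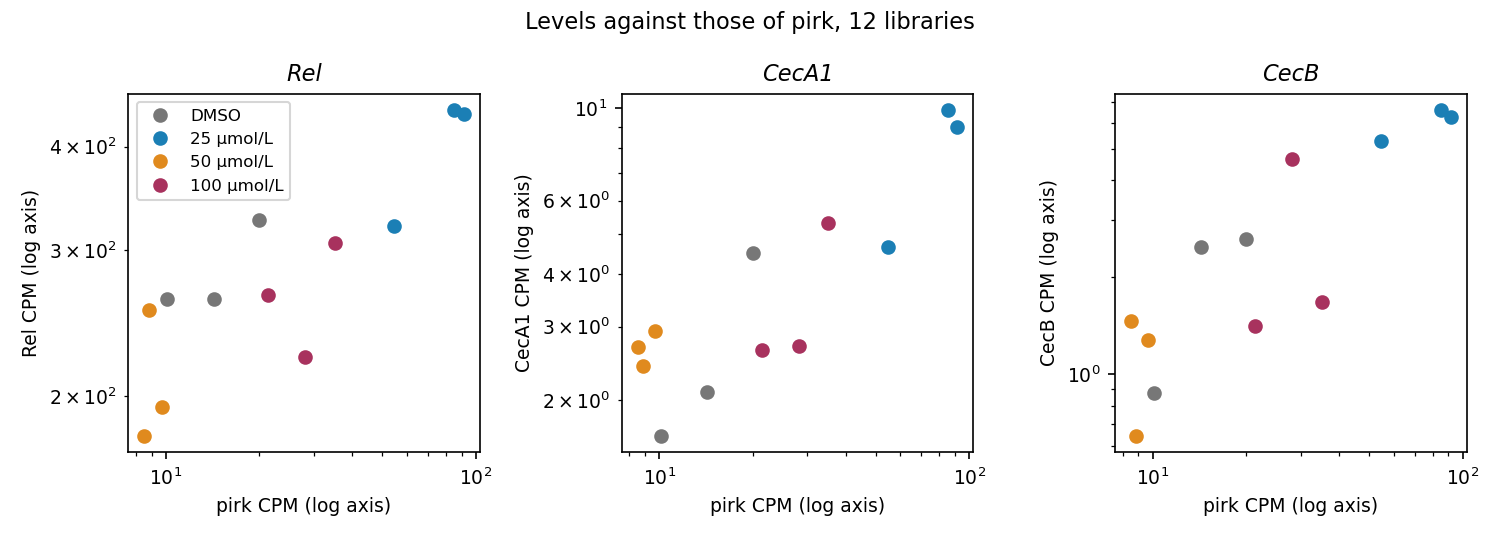
Levels of Rel, CecA1 and CecB (y, CPM, log axes) against those of pirk (x, CPM, log axis) in the 12 libraries, with a point per library and a colour per group. Replicates 2 and 3 of 25 µmol/L, at 85.3 and 91.4 CPM of pirk, hold the highest values of all 3 genes, and the libraries of 50 µmol/L lie at the left.

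Antimicrobial peptide genes, which include outputs of the pathway, numbered 14, of which 11 were tested. With edgeR 0 were called at any concentration, and 4, 1 and 1 had an unadjusted p under 0.05, against 15.6%, 26.2% and 21.8% of all genes. Without a filter on counts edgeR called 2 at 25 µmol/L (CecA1 and CecB), among 464 genes in all. It called 1 at 25 µmol/L without replicate 1 of that group and 1 at 100 µmol/L without replicate 1 of that group. The first of these fits called 200 genes in all. At 100 µmol/L, leaving out each library gave 89 to 455 genes in all. The fold changes had medians of 0.33, -0.39 and -0.26 on the log2 scale in order of dose. CecB had the largest fold change at 25 µmol/L, 1.60 (SE 0.467, edgeR adjusted p 0.106), followed by CecA1 with 1.5 (SE 0.412, edgeR adjusted p 0.0881), which DESeq2 called as the 1 gene of the list. DptB, a diptericin and a classical readout of the pathway, had -0.35 at 25, -0.65 at 50 and -0.73 at 100 µmol/L (edgeR adjusted p 0.659, 0.229 and 0.209). At 50 relative to 25 µmol/L, CecB, picked above for following pirk, had a log2 fold change of -2.45 (edgeR adjusted p 0.09). DESeq2 and edgeR with the correction for length called CecB there, among 42 and 27 genes in all. Without a filter edgeR called CecA1 and CecB there, among 207 genes in all.

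Of 10 further peptidoglycan recognition genes, 6 were tested and 0 were called by edgeR at any concentration, with 2, 1 and 2 at an unadjusted p under 0.05 (15.6%, 26.2% and 21.8% of all genes). In order of dose the list's medians were 0.53, -0.10 and 0.22 on the log2 scale. PGRP-LA and PGRP-LF lie on either side of PGRP-LC on 3L (at 9334332 to 9338336 and 9349609 to 9351489). PGRP-LF, a membrane inhibitor of the pathway, had 26.9, 25.8 and 28.2 CPM at 25 µmol/L, against 17.9, 17.0 and 17.9 CPM in DMSO (log2 fold change 0.61, SE 0.165, edgeR adjusted p 0.0798). PGRP-LA had 32.4, 33.3 and 36.9 CPM at 25 µmol/L, against 22.1, 22 and 23.8 CPM in DMSO (log2 fold change 0.59, SE 0.148, edgeR adjusted p 0.0537). Both lay above DMSO in all 3 libraries at 25 µmol/L, as did 10.8% of all genes. DESeq2 called both there, among 230 genes in all, with 0 of the list at 50 and 100 µmol/L, and edgeR without a filter called PGRP-LA there. Between them, PGRP-LC had a log2 fold change of 0.04. Relative to 25 µmol/L, PGRP-LF had log2 fold changes of -0.80 at 50 and -0.84 at 100 µmol/L (edgeR adjusted p 0.0722 and 0.0522). DESeq2 called it in both comparisons, among 42 and 25 genes in all. So did edgeR without a filter and edgeR with the correction for length.

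The list of 8 other positive components held the kinase partners Tab2 and IKKbeta, the ubiquitin machinery of Diap2, ben, Uev1A and eff, and the nuclear cofactors akirin and Bap60. All 8 were tested and edgeR called 0 at any concentration, with 0, 1 and 1 at an unadjusted p under 0.05, against 15.6%, 26.2% and 21.8% of all genes. DESeq2 called 0, 1 and 0, among 230, 748 and 527 genes in all. Without a filter on counts edgeR called 2 at 50 (eff and akirin) and 1 at 100 µmol/L (akirin), among 1058 and 777 genes in all. Without 50 µmol/L replicate 1 it called 1 at 50 µmol/L, where leaving out each library gave 50 to 1233 genes in all. Medians of the log2 fold change were 0, -0.26 and -0.16 at 25, 50 and 100 µmol/L. The gene that DESeq2 called at 50 µmol/L was akirin, at 4.02 ± 2.02 CPM against 10.5 ± 4.66 CPM in DMSO (SD, n = 3 each; log2 fold change -1.36, edgeR adjusted p 0.0771). Diap2, a ubiquitin ligase of the pathway, was among the steadiest, at 300 ± 13.2 CPM in DMSO, 303 ± 18.8 at 25, 298 ± 7.48 at 50 and 308 ± 9.76 CPM at 100 µmol/L (SD, n = 3 each).

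Negative regulators numbered 10, of which 7 were tested. With edgeR 1, 2 and 1 of the 7 were called at 25, 50 and 100 µmol/L, all lower. Of all genes, 1.13%, 5.16% and 3.59% were called lower. The list's medians were -0.03, -0.26 and -0.02 at 25, 50 and 100 µmol/L. The zinc-finger factor zfh1 fell at all 3 concentrations, with log2 fold changes of -1.22, -1.73 and -1.57 and edgeR adjusted p of 0.0174, 0.00334 and 0.00277. It had 34.3, 21.2 and 24.1 CPM in DMSO, 10.4, 11.6 and 12.3 at 25, 9.32, 7.55 and 6.95 at 50 and 9.07, 11.5 and 6.70 CPM at 100 µmol/L. The deubiquitinase gene Usp2 fell at 50 µmol/L (log2 fold change -1.74, edgeR adjusted p 0.0145) but was not called there with the correction for length. At 25 and 100 µmol/L it had log2 fold changes of -1.31 and -1.08 (edgeR adjusted p 0.0601 and 0.0706). DESeq2, and edgeR without a filter on counts, called both zfh1 and Usp2 at all 3 concentrations. In all, DESeq2 called 230, 748 and 527 genes there, and edgeR without a filter 464, 1058 and 777. Both zfh1 and Usp2 are long (6915 and 7489 exonic bases), and zfh1 was still called at all 3 concentrations with the correction. With the title run as a term 0 of the list were called, and at 25 µmol/L the call of zfh1 was lost without DMSO replicate 1 or without 25 µmol/L replicate 2 or 3. At 50 µmol/L the list kept 1 of its 2 calls without DMSO replicate 1 or without 50 µmol/L replicate 2 or 3. Leaving out each library gave 50 to 1233 genes in all there.

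Tak1 also feeds the JNK branch. Of its 6 genes, hep, the kinase kinase of JNK, fell at 50 µmol/L (log2 fold change -1.19, SE 0.269, edgeR adjusted p 0.0179), at 19.0 ± 9.61 CPM against 44.4 ± 12.3 CPM in DMSO (SD, n = 3 each). It was the 1 call of the 6 there, against 6.85% of all genes called and 5.16% called lower. At 25 and 100 µmol/L hep had 23.8 ± 2.62 and 23.7 ± 2.7 CPM (SD, n = 3 each), with log2 fold changes of -0.90 and -0.91 (edgeR adjusted p 0.0979 and 0.0528). The call at 50 µmol/L was lost with the correction for length, with the title run as a term, with the 2 groups fitted alone and without DMSO replicate 1 or 50 µmol/L replicate 2 or 3. The list had 2 calls there with the replicate number as a block or without DMSO replicate 2, and 3 without 50 µmol/L replicate 1. Over all genes, 635 were called there with that block, and leaving out each library gave 50 to 1233. With edgeR 0 of the 6 were called at 25 and 100 µmol/L (3 and 2 at an unadjusted p under 0.05, against 15.6% and 21.8% of all genes). DESeq2 called hep at all 3 concentrations, with the transcription factor genes Jra at 25 and 100 and kay at 50 µmol/L. In all it called 230, 748 and 527 genes at 25, 50 and 100 µmol/L. The phosphatase puc, a transcriptional target of JNK, averaged 47.6 ± 5.47 CPM in DMSO, 68.4 ± 26 at 25, 37.2 ± 9.65 at 50 and 49.0 ± 8.77 CPM at 100 µmol/L (SD, n = 3 each). Its log2 fold changes of 0.52, -0.36 and 0.04 did not pass the threshold (edgeR adjusted p 0.303, 0.368 and 0.953).

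**Figure D5:**
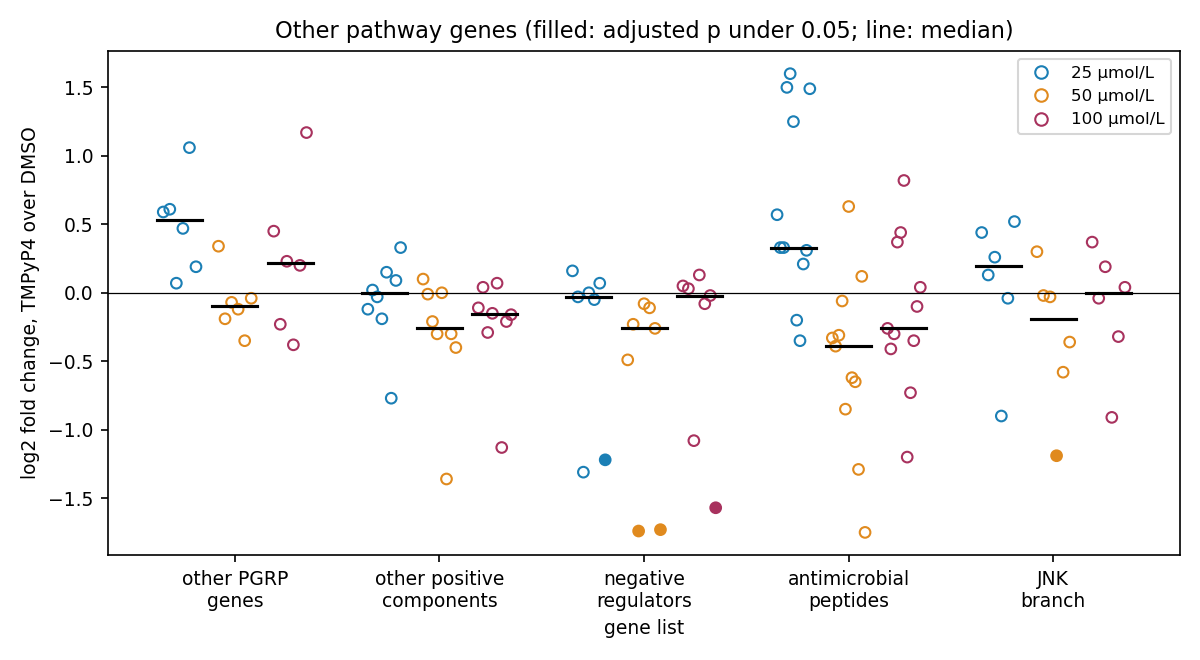
Log2 fold change of TMPyP4 over DMSO for the tested genes of 5 lists of other pathway genes, at 25, 50 and 100 µmol/L. Each point is a gene, filled where the edgeR adjusted p was under 0.05, and lines are list medians. The filled points are zfh1, Usp2 and hep, all below 0, and the medians at 50 µmol/L are below 0 in every list, from -0.39 to -0.10.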

How the data were processed

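The authors deposited a table of raw read counts, in whole numbers, with a row per gene and a column per library. Per the labels, total RNA (described as a mixture with zebrafish RNA) gave stranded (dUTP) poly(A) libraries. The submitters' processing notes name HISAT2 2.0.5, SAMtools 1.7, HTSeq 0.9.1, FastQC 0.11.8, MultiQC 0.9 and the build dm6. The annotation, whether counting used strand, and the handling of zebrafish reads are not given in the sources used here. Exons of imd, Dredd and key overlap a gene on the other strand by 40, 12 and 29 bases, those of Dredd also short RNA entries on its own strand.

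Entries for reads outside genes (no feature 0.783 to 1.04%, ambiguous 1.87 to 2.71% of counts) were left out. Names, dm6 positions and exonic lengths came from the annotation BDGP6.54, which matched 17358 of 17494 identifiers. Sequences were not used here.

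Genes passing filterByExpr (minimum count 10, minimum total 15; 7328 genes) were scaled with TMM factors and tested in a fit of all 12 libraries on group with edgeR 4.0.16 in R 4.3.3 (glmQLFit, glmQLFTest, two-sided, Benjamini-Hochberg over all genes of each comparison, threshold 0.05). SE is the absolute log2 fold change over the square root of F. A prior count of 2 entered log2 CPM. The fit was tested on simulated counts. DESeq2 1.42.0 and the other alternatives are given at the end. The correction for length is an offset per library. It is a smooth, on log2 exonic length, of the deviation of log2 CPM from the gene's own mean (99.1% of tested genes had a length).

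The members, lists and tests were chosen with earlier results of these data known. Named genes are the 10 members, the called genes of 5 lists and otherwise up to 3 of a list with the lowest p, and the 5 genes most like pirk. Col4a1, Hml, vkg, ush, Pxn, srp, eater, crq, Sr-CI, NimC1 and bam come from the lists of cell type markers. DptB, Diap2, puc and the genes called by an alternative fit alone (eff, Jra, kay) were named beside that rule, after their values were seen.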

Additional observations from a re-analysis of the deposited data

How the results depend on the processing

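The fold changes of pirk kept their direction in all alternatives run. Since pirk was chosen because its level stood out in these same libraries, that describes the fits and is no support. The number of members called was 0 against DMSO at each concentration and became 1 (Rel) without a filter on counts at 25 and 50 µmol/L, and 1 likewise for 100 against 25 µmol/L. It was 1 for 50 against 25 µmol/L and 0 there with the title run as a term. Leaving out each library gave 0 to 1 for 25 and 50 µmol/L against DMSO, for 50 against 25 and for 100 against 25 µmol/L. The cause was not tested.

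Fold changes that turned round were all small. With the title run as a term PGRP-LE had 0.10 at 25 µmol/L, and imd 0.00, Dredd -0.11 and Rel 0.01 at 100 µmol/L. With the correction for length Tak1 had 0.07, 0.09 and 0.06 at 25, 50 and 100 µmol/L, PGRP-LC 0.11 at 50 and imd -0.01 at 100 µmol/L. Leaving out each library gave -0.24 to 0.15 for PGRP-LE, -0.02 to 0.20 for imd and -0.01 to 0.07 for PGRP-LC at 25 µmol/L, -0.20 to 0.11 for Dredd at 50 µmol/L, and -0.22 to 0.02 for Rel and -0.02 to 0.19 for imd at 100 µmol/L.

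Over all genes, 122, 502 and 379 were called at 25, 50 and 100 µmol/L against DMSO. The counts were 464, 1058 and 777 without a filter, 230, 748 and 527 with DESeq2, 61, 90 and 209 with the correction for length, 12, 0 and 1 with the title run as a term, and 89, 218 and 520 with the groups compared alone. Leaving out each library gave 6 to 200, 50 to 1233 and 89 to 455. Between concentrations 22 (50 against 25), 15 (100 against 25) and 3 (100 against 50) were called, 207, 70 and 35 without a filter, 42, 25 and 9 with DESeq2, and 1, 0 and 1 with the title run. With the groups compared alone 25 were called for 100 against 25 µmol/L.

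Of 18 correlations between the deviations of same-numbered libraries, 6 were over 0.1 (-0.378 to 0.442). Pairs with a 25 µmol/L library ran from -0.378 to 0.21, and pairs among the other groups from -0.087 to 0.442. Those exceeding the mean with other numbers were 9. Deviations cancel within a group, so that mean mirrors the correlation and cannot decide whether replicate numbers pair the libraries. With the replicate number as a block 149, 635 and 446 genes were called against DMSO, beside 122, 502 and 379 without it. Rel kept its call for 50 against 25 µmol/L with that block (-0.94, edgeR adjusted p 0.0196).

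Depth limits PGRP-LB, at 0 to 3 counts per library. PGRP-LE had an SE of 0.273 to 0.293 against DMSO and a spread within groups of 0.34 (SD, log2), against an SE of 0.0911 to 0.0919 and a spread of 0.07 for key.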
